A study of Mus musculus with 50 samples.

Results

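β-catenin, the protein that carries the canonical Wnt signal into the nucleus and also links cadherins to the cytoskeleton, was knocked down in naive mouse embryonic stem (ES) cells, and the RNA of those cells was compared with that of control cells. The comparison uses 6 of the 50 samples of the series. These are 2 libraries of V6.5 ES cells carrying a short hairpin against β-catenin (shBcat) and 4 libraries of V6.5 cells carrying a hairpin against GFP (shGFP libraries 1, 2, 5 and 6), labelled as a mock control. All were grown in 2i, a defined medium that keeps ES cells naive by inhibiting the kinases MEK and GSK3. Another pair of shGFP libraries, 3 and 4, serves only as a check. The series asks which developmental genes β-catenin and its partners regulate. V6.5 is an established mouse ES cell line; neither the hairpin sequences nor the time after their introduction are given for these 6 libraries, and the labels do not say that the libraries came from separate cultures, so the p-values measure the spread between libraries, which may be technical. Of the 17043 genes listed, 13917 reached 1 FPKM (fragments scaled by transcript length and library size) in at least 2 of the 6 libraries and were tested.

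In canonical Wnt signalling, a destruction complex built on Axin and APC lets GSK3 mark β-catenin for degradation. When GSK3 is inhibited, as it is by a component of 2i, β-catenin accumulates without a Wnt ligand and binds the DNA-binding proteins of the Tcf and Lef family. In ES cells, β-catenin is known for lifting repression by Tcf7l1 (also called Tcf3) from pluripotency genes, while in the embryo the same pathway drives primitive streak, mesoderm and posterior genes.

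The targeted gene was strongly reduced. Ctnnb1, which encodes β-catenin (chromosome 9, 120933400 to 120960507, GRCm38.p6), had 6.58 and 6.61 FPKM in the shBcat libraries, against 122, 126, 133 and 134 FPKM in shGFP libraries 1, 2, 5 and 6. The groups lay far apart, and the 88.8 and 92.1 FPKM of shGFP libraries 3 and 4 were also well above the shBcat values. On the log2(FPKM + 1) scale used for every V6.5 change below, Ctnnb1 fell by 4.09 ± 0.06 (standard error, SE; limma adjusted p = 2.26e-06). Jup, the relative of β-catenin also called plakoglobin, averaged 11.1 ± 0.49 FPKM in shBcat (SD, n = 2) and 14.7 ± 2.4 FPKM in shGFP (SD, n = 4), a log2 change of -0.37 that missed the threshold (limma adjusted p = 0.102).

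The cells still expressed Pou5f1 (Oct4) and Sox2, 2 defining markers of ES cells. The shBcat libraries held 226 and 231 FPKM of Pou5f1 and 137 and 141 FPKM of Sox2, and the highest of the shGFP libraries held 336 FPKM of Pou5f1 and 124 FPKM of Sox2. Pou5f1 was called lower, near the threshold. Other markers of ES cells went both ways, such as Tfcp2l1, which fell, and Lin28a, which rose, as given below. Of 9 tested genes of a fibroblast and matrix list, 1 rose and 3 fell, and the list summed to 225.1 to 225.5 FPKM in shBcat and 235.5 to 266.2 FPKM in shGFP. The collagen genes Col1a1, Col1a2 and Col3a1, which mark fibroblasts, were not among the genes tested. In bulk RNA, fewer cells of a type and less RNA per cell cannot be told apart.

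Across all genes the knockdown libraries differed widely from the controls. A gene was called where limma's adjusted p was under 0.05 over all genes tested. By this rule 3915 genes (28.1%) were called, of which 1397 (10.0%) rose and 2518 (18.1%) fell. With scaling by the median of ratios the split was 1928 higher and 1986 lower, and the median log2 change of all genes, -0.06, moved to 0.00. With a minimum change of 2-fold, 459 genes (3.30%) were called, 96 higher (0.690%) and 363 lower (2.61%). The libraries of both groups did not overlap for 7600 genes (54.6%).

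The shGFP libraries lie in pairs, which bears on all these counts. The median absolute log2 difference was 0.05 between the shBcat libraries, 0.06 between shGFP 1 and 2 and 0.05 between shGFP 5 and 6, but 0.16 to 0.17 between the shGFP pairs and 0.17 to 0.23 between shBcat and shGFP. When each pair was averaged to 1 value, 570 genes were called, and 409 of the 459 genes past 2-fold kept their call. When shBcat library 1 or 2 was left out, 1240 and 1255 genes were called, and 390 of the 459 were kept in either case. Results below therefore lead with changes of 2-fold or more, and calls lost with the pairs averaged are named as such. In these fits shBcat is a single value that is assumed to vary like the controls. A call that held there measures no spread between shBcat libraries. Each of these fits called more genes lower than higher over all genes tested. Counts kept per list are to be read beside those totals. Mitochondrial transcripts made up 10.3% and 10.0% of summed FPKM in shBcat, against 8.92%, 8.26%, 6.23% and 6.59% in shGFP 1, 2, 5 and 6. The share was thus higher in both shBcat libraries than in these 4 controls, and it was 20.4% and 19.3% in shGFP 3 and 4. Of 13 mitochondrial genes 6 rose and 1 fell, none with the pairs averaged, and their part in the results was not tested.

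**Figure D1:**
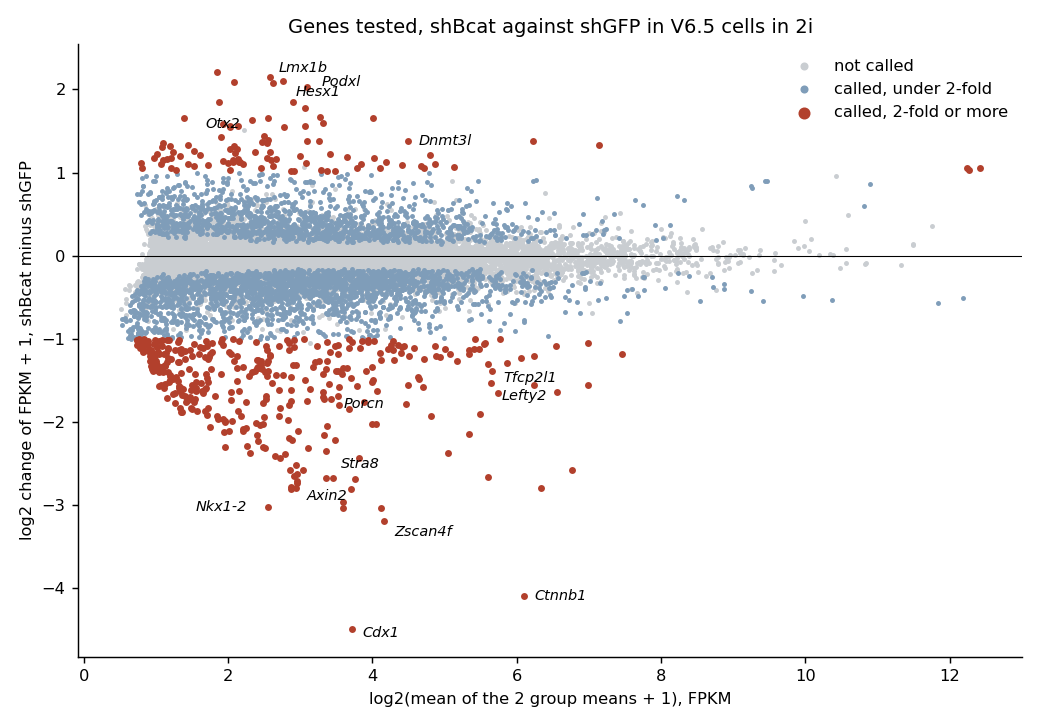
Log2 change of each of the 13917 tested genes (shBcat minus shGFP, FPKM + 1) against its mean level; red points are called genes that changed 2-fold or more, 96 above and 363 below 0. Cdx1 and Ctnnb1 lie lowest, and Lmx1b is among the highest.

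Direct readouts of Wnt signalling were among the largest falls. Cdx1, a homeobox gene of posterior development and a known Wnt target, had 0.102 and 0.112 FPKM in shBcat, against 19.9, 22, 27.0 and 27.8 FPKM in shGFP. It fell by 4.49 ± 0.14 on the log2 scale (SE; limma adjusted p = 2e-05), the largest fall among the named genes. shGFP libraries 3 and 4, at 8.11 and 8.81 FPKM, were lower than the other controls yet far above both knockdown libraries. Axin2 (chromosome 11, 108917828 to 108950783), the negative-feedback scaffold widely used as a Wnt reporter, had 0.945 and 0.911 FPKM in shBcat and 13, 12.3, 12.0 and 12.5 FPKM in shGFP. Its controls were close to each other, with 12.5 and 12.3 FPKM in shGFP 3 and 4, and the log2 change was -2.80 ± 0.05 (SE; limma adjusted p = 4.41e-06). Tnfrsf19 (Troy), a Wnt-induced receptor, had 1.13 and 1.01 FPKM in shBcat, against 6.94, 6.82, 7.67 and 8 FPKM in shGFP, and fell by 2.01 ± 0.08 (SE; limma adjusted p = 3.85e-05).

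Other Wnt targets fell too, over controls that were less even. Sp5, a zinc-finger repressor that Wnt induces, was at 0.0212 and 0.0187 FPKM in shBcat, against 1.32, 1.41, 4.09 and 4.26 FPKM in shGFP. Notum, a secreted enzyme that inactivates Wnt ligands, had 4.98 and 5.45 FPKM in shBcat and 11.7, 11.9, 20.0 and 19.7 FPKM in shGFP. Both were lower in shBcat than in every shGFP library, but shGFP 5 and 6 were higher than 1 and 2, and neither call held with the pairs averaged (limma adjusted p = 0.311 for Sp5 and 0.0963 for Notum) or without either shBcat library. In the list of Wnt feedback and target genes, 11 of 23 members reached the level for a test. Of these 7 fell and none rose, 5 of them by 2-fold or more, with a median log2 change of -0.51 against -0.06 over all genes tested, and 3 falls were kept with the pairs averaged, with 4 and 3 called without shBcat library 1 and 2. T (brachyury) and Cdx2, of the same list, stayed under the filter, at 0.0768 and 0.135 FPKM for T in shBcat and 0.604 to 0.986 FPKM in shGFP, and at 0.0197 and 0.0346 FPKM for Cdx2 in shBcat and 0.604 to 0.932 FPKM in shGFP. Nkd1, a Wnt feedback gene under the filter, had 0.718 and 0.668 FPKM in shBcat and 0.520 to 0.805 FPKM in shGFP, so its groups overlapped.

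Promoter windows of 250 bases before to 50 after the start (RefSeq, GRCm38.p6) are shown for 3 of these targets, as examples of windows with and without the core letters that Tcf and Lef proteins are known to bind. The letters searched were CTTTGAT on either strand (ATCAAAG when read on the other), and capitals mark them. The Sp5 window is chr2:70474673-70474972 on the plus strand. The Tnfrsf19 window is that of the more internal of its listed starts, chr14:61037938-61038237 on the minus strand (the window of its other listed start, chr14:61046806-61047105, holds no match). The Axin2 window, chr11:108920099-108920398 on the plus strand, holds no match. It lies inside the gene, which begins at 108917828, and no window at that first base was listed, so none was read there.
Sp5: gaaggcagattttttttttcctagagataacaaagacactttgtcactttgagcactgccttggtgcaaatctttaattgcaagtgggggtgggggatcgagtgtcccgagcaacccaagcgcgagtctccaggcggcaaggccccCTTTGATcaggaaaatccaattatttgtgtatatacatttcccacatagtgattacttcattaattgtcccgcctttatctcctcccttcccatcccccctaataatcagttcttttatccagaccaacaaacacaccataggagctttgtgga
Tnfrsf19: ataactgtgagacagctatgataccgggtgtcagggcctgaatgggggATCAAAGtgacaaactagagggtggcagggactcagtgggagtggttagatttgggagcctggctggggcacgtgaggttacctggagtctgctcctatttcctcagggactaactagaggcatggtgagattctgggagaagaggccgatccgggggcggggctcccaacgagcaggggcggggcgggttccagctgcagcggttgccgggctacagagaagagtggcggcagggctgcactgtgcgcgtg
Axin2: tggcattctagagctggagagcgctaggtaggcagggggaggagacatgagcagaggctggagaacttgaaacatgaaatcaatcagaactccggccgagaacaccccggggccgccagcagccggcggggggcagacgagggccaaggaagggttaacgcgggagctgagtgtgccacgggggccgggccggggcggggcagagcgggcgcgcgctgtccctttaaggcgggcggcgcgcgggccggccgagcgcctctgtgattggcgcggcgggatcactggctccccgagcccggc
The match starts at base 147 of the Sp5 window and base 49 of the Tnfrsf19 window. Of the 363 genes that fell 2-fold or more, windows were matched by symbol for 194, and 9 of their 243 windows (3.70%) held the letters, against 269 of 11055 windows of genes tested (2.43%) and 1225 of 32851 of all windows listed (3.73%). Of the 74 windows matched to 60 genes that rose 2-fold or more, none did. A match is a stretch of letters and was not tested as a binding site.

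**Figure D2:**
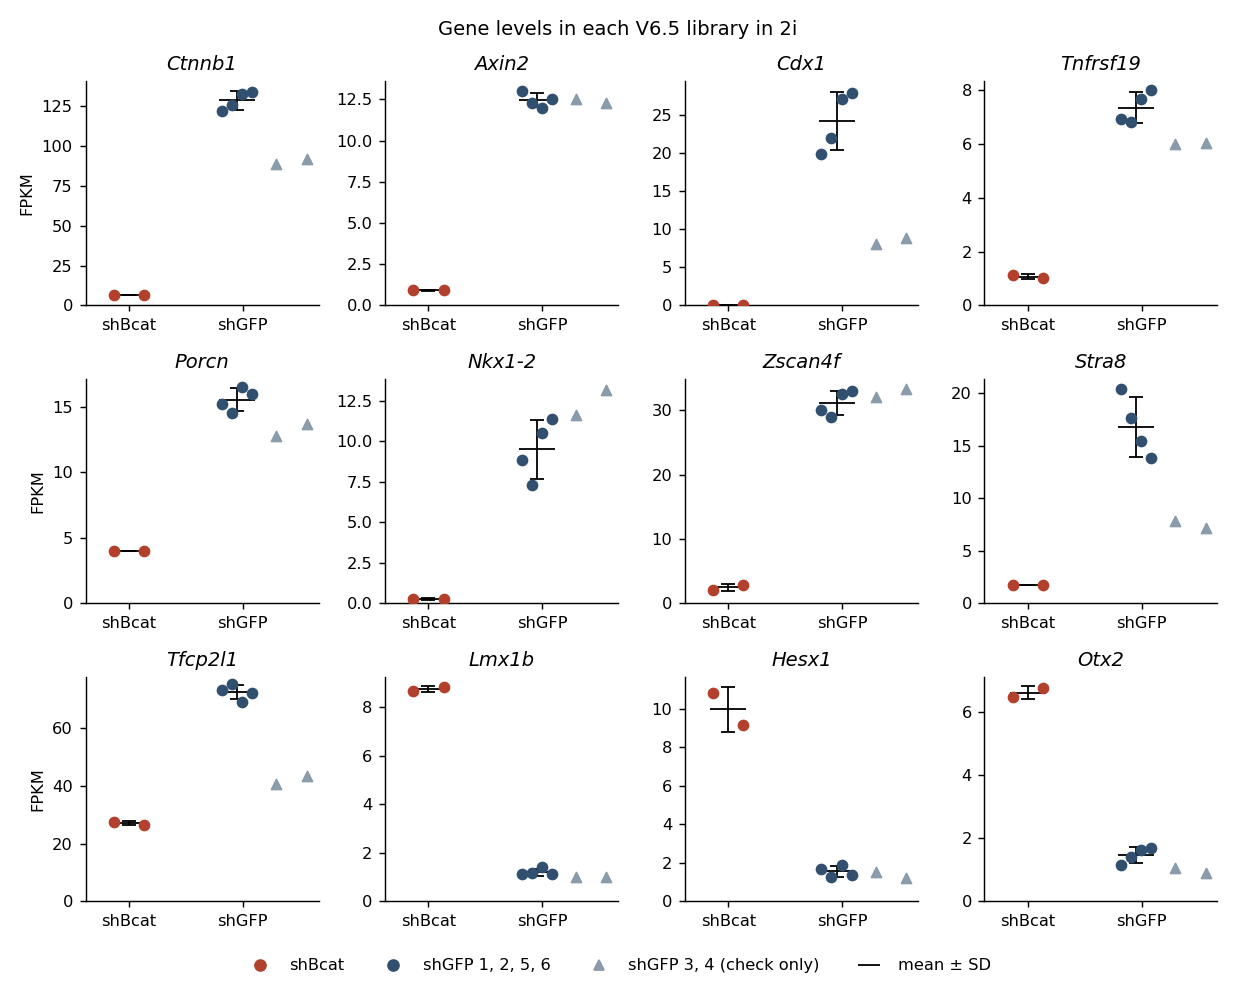
FPKM of 12 genes in each V6.5 library, with shBcat left (red) and shGFP 1, 2, 5 and 6 right (blue), the mean and SD of each group, and shGFP 3 and 4 as grey triangles. The 2 shBcat libraries lie outside the range of all 6 shGFP libraries in every panel, below it for 9 genes and above it for Lmx1b, Hesx1 and Otx2.

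Secreted and membrane parts of the pathway split. Porcn, the acyltransferase that Wnt ligands need for secretion, had 3.99 and 4.01 FPKM in shBcat and 15.2, 14.5, 16.5 and 16.0 FPKM in shGFP (log2 change -1.73 ± 0.06, SE; limma adjusted p = 2.84e-05). Fzd10, a Wnt receptor, had 3.67 and 3.98 FPKM in shBcat, against 12.8 to 15.6 FPKM in shGFP. Ror2, a receptor for non-canonical Wnts, had 2.27 and 1.98 FPKM in shBcat, against 7.13 to 9.55 FPKM in shGFP. The ligand Wnt8a was at 0.102 and 0.179 FPKM in shBcat and 1.46 to 2.03 FPKM in shGFP. These 4 fell by 2-fold or more and were called with the pairs averaged. Of 25 tested ligands, receptors and modulators, 5 fell and 7 rose, with a median log2 change of -0.04, and none of the 7 rises reached 2-fold or was called with the pairs averaged, while 2 rises were called without either shBcat library. The largest of them was Sfrp4, a secreted Wnt antagonist, with 2.2 and 2.23 FPKM in shBcat and 0.732 to 0.819 FPKM in shGFP (log2 change 0.84).

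The intracellular machinery moved little. Among 17 tested members of the destruction complex and its partners 5 fell and none rose, with a median of -0.17. Apart from Ctnnb1 none changed by 2-fold, and Ctnnb1 alone was called with the pairs averaged, with 2 falls without either shBcat library. Gsk3b, the kinase that one of the 2i inhibitors targets, had 8.13 and 7.97 FPKM in shBcat and 11.3 to 11.6 FPKM in shGFP (log2 change -0.46; limma adjusted p = 0.000965, and 0.212 with the pairs averaged). Of the Tcf and Lef genes, Tcf7 fell, with 17.4 and 17.9 FPKM in shBcat and 21.1 to 25.5 FPKM in shGFP, a call that was lost with the pairs averaged (limma adjusted p = 0.387) and without either shBcat library. Tcf7l1, the main repressor of the family in ES cells, had 22.6 and 24.2 FPKM in shBcat and 22.7 to 26.6 FPKM in shGFP, and Lef1 and Tcf7l2 overlapped between the groups as well. The co-repressors of the Groucho family went both ways, with log2 changes of 0.39 for Tle3 and -0.30 for Tle4, and both calls were lost with the pairs averaged.

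Genes of the primitive streak and of posterior identity were lower after the knockdown. Nkx1-2, a homeobox gene of the caudal epiblast, had 0.245 and 0.300 FPKM in shBcat, against 8.82, 7.28, 10.5 and 11.4 FPKM in shGFP (log2 change -3.03 ± 0.16, SE; limma adjusted p = 0.000122). Lefty2, a secreted Nodal antagonist, had 24.2 and 24.8 FPKM in shBcat and 68.0, 71.0, 74.6 and 78.9 FPKM in shGFP (log2 change -1.54 ± 0.07, SE; limma adjusted p = 6.72e-05). For both genes the groups were well separated, and the calls held with the pairs averaged. Of 8 tested streak and mesoderm genes 6 fell and none rose, with a median log2 change of -1.20, and 5 falls were kept with the pairs averaged, among them Snai1, a driver of epithelial-to-mesenchymal transition (log2 change -0.90). Lists share members: Cdx1, Wnt8a and Lefty2 of the streak list are also counted in the Wnt target, Wnt ligand and Nodal lists. Of 39 Hox genes only 6 reached the level for a test. Of these tested genes of the body-axis clusters 4 fell and none rose, and 1 call held with the pairs averaged. Hoxa5, Hoxa7 and Hoxb9, with log2 changes of -0.85, -1.01 and -0.80, were not called with the pairs averaged.

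Nodal and BMP readouts went the same way for some members. Nodal, the streak-inducing ligand, had 22.7 and 25.9 FPKM in shBcat and 52.4 to 57.1 FPKM in shGFP (log2 change -1.14 ± 0.07, SE; limma adjusted p = 0.000179), but 20.7 and 20.6 FPKM in shGFP 3 and 4, so its direction depends on the controls used. Id3, a BMP target, had 0.174 and 0.262 FPKM in shBcat and 1.61 to 3.32 FPKM in shGFP (log2 change -1.48). Id3 was not called without either shBcat library. Of 14 tested Nodal and Activin genes 5 fell and 1 rose (median -0.13), and of 10 BMP genes 4 fell and none rose (median -0.24). Without shBcat library 1 or 2, 4 and 3 Nodal genes and 1 and 0 BMP genes were called lower. Of 13 tested ERK feedback genes and targets 4 fell and 1 rose (median -0.21). Etv4, an ETS factor downstream of FGF and ERK, was the one at 2-fold or more, at 0.974 and 1.12 FPKM in shBcat and 3.15 to 4.34 FPKM in shGFP.

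All tested genes of the 2-cell stage fell. The list holds genes that ES cell cultures express in the small fraction of cells that pass through a state like the 2-cell embryo, in which the Zscan4 zinc-finger genes, linked to telomere maintenance, are switched on. All 23 of its tested members fell, 20 of them by 2-fold or more, with a median log2 change of -1.87, and 18 falls were kept with the pairs averaged. Without shBcat library 1 or 2 there were 19 falls in each case, and against shGFP 3 and 4 alone there were 22 falls and 1 rise. Summed over the list, the level was 18.53 to 19.13 FPKM in shBcat and 185.7 to 227.6 FPKM in shGFP. Zscan4f (chromosome 7, 11397915 to 11402318) had 2.14 and 2.92 FPKM in shBcat, against 30.1, 29.0, 32.5 and 33.0 FPKM in shGFP (log2 change -3.19 ± 0.10, SE; limma adjusted p = 2.13e-05). Zscan4c had 2.98 and 2.56 FPKM in shBcat and 27.7, 28.2, 32.6 and 31.0 FPKM in shGFP. The controls of both genes were even, and shGFP 3 and 4 held 32.0 and 33.3 FPKM of Zscan4f. Tmem92, another gene of this state that lies outside the Zscan4 cluster, had 1.14 and 0.824 FPKM in shBcat and 9.14 to 10.1 FPKM in shGFP (log2 change -2.41 ± 0.08, SE; limma adjusted p = 2.19e-05).

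The Zscan4 copies are near-identical, so reads may have been split among them and each copy's own level is uncertain. Their promoter windows are shown because the copies fell together. The Zscan4c window is chr7:11005495-11005794 on the plus strand, that of Zscan4d is chr7:11166099-11166398 on the minus strand and that of Zscan4f is chr7:11397665-11397964 on the plus strand. Capitals mark the longest run of letters, 55 bases, that all 3 windows share.
Zscan4c: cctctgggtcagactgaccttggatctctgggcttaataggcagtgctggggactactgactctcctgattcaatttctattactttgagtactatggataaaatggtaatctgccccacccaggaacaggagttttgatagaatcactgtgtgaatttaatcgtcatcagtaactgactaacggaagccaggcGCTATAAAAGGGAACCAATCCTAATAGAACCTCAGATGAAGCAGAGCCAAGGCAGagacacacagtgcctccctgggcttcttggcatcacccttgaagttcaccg
Zscan4d: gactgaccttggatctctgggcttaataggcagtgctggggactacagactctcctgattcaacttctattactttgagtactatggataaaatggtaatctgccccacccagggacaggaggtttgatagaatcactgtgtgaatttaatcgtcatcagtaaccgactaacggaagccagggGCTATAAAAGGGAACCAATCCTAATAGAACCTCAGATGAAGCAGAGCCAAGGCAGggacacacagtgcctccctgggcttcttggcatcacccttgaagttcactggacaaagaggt
Zscan4f: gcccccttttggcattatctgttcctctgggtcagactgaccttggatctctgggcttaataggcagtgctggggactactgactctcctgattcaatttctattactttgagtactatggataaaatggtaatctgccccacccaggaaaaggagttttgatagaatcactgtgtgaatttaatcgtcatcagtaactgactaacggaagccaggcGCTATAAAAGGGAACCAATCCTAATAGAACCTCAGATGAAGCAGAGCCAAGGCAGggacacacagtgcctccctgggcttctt
In a global alignment, with gaps counted in its length, the windows of Zscan4c and Zscan4d were identical at 281 of 311 positions (90.4%). Those of Zscan4c and Zscan4f were identical at 275 of 323 (85.1%) and those of Zscan4d and Zscan4f at 259 of 334 (77.5%). The shared run starts at base 195, 184 and 218 of the Zscan4c, Zscan4d and Zscan4f windows. The windows are thus offset, and the gaps at their ends lower these percentages, which do not rank the copies by likeness. None of the 3 holds CTTTGAT on either strand.

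Germline genes fell beside them. Stra8, which germ cells need to enter meiosis (chromosome 6, 34920163 to 34939344), had 1.73 and 1.76 FPKM in shBcat, against 20.4, 17.6, 15.4 and 13.8 FPKM in shGFP (log2 change -2.68 ± 0.14, SE; limma adjusted p = 0.000122). Dazl, an RNA-binding protein of germ cells, had 4.40 and 4.38 FPKM in shBcat and 14.4 to 18.7 FPKM in shGFP (log2 change -1.70 ± 0.12, SE; limma adjusted p = 0.000308). Nanos3, which primordial germ cells need to survive, had 2.01 and 1.66 FPKM in shBcat and 10.0 to 15.9 FPKM in shGFP. For all 3, shGFP 3 and 4 were also above shBcat, at 7.81 and 7.14 FPKM for Stra8, 10.7 and 11.4 FPKM for Dazl and 7.57 and 10.7 FPKM for Nanos3. For Rec8, a meiotic cohesin, and Tex19.1, which acts in the germline against transposons, shBcat was lower than shGFP 1, 2, 5 and 6 (log2 changes -1.54 and -1.18) but not lower than shGFP 3 and 4. Of 26 tested germline and meiosis genes 10 fell and 5 rose, with a median of -0.33, and 5 falls and 1 rise were kept with the pairs averaged. Without either shBcat library there were 6 falls and 1 rise.

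The network of naive pluripotency was reduced in part. Tfcp2l1 (chromosome 1, 118627923 to 118685168), a transcription factor of the naive state, had 27.6 and 26.5 FPKM in shBcat, against 73.1, 75.1, 69.0 and 72.1 FPKM in shGFP (log2 change -1.39 ± 0.06, SE; limma adjusted p = 4.36e-05). The 40.6 and 43.4 FPKM of shGFP 3 and 4 lay between these groups. Tbx3, a T-box factor of naive cells, had 11.7 and 11.9 FPKM in shBcat and 34.1, 34.7, 22.9 and 22.1 FPKM in shGFP, and its call was lost with the pairs averaged (limma adjusted p = 0.0663) and without either shBcat library. Spic, a PU.1-related factor, had 2.59 and 2.58 FPKM in shBcat and 6.06 to 8.91 FPKM in shGFP. Of the 26 members of the naive list, all tested, 12 fell and 3 rose, with a median of -0.44, and 3 falls and no rise were kept with the pairs averaged. Without shBcat library 1 or 2, 5 and 6 falls and 1 rise each were called.

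Other members of that network moved less or not past the threshold. Nanog had 278 FPKM in both shBcat libraries and 332 to 439 FPKM in shGFP, a log2 change of -0.44 that missed the threshold (limma adjusted p = 0.0574). Esrrb, at 92.9 and 93.9 FPKM in shBcat and 89.5 to 106 FPKM in shGFP, and Zfp42 (Rex1), at 160 and 166 FPKM in shBcat and 149 to 181 FPKM in shGFP, overlapped between the groups. Klf2, Klf4, Prdm14 and Nr5a2, all factors of the naive network, were called lower, with log2 changes between -0.57 for Klf4 and -0.44 for Nr5a2. None of these 4 calls held with the pairs averaged, and for Klf2, Klf4 and Prdm14 the direction was opposite against shGFP 3 and 4. The core factor Pou5f1 was lower by 0.39 on the log2 scale, near the threshold (limma adjusted p = 0.0469), with the same loss and the same turn of direction, and Sox2 missed the threshold (log2 change 0.28; limma adjusted p = 0.0625). Of 12 core pluripotency genes 3 fell and 3 rose. Dppa2, a chromatin factor of pluripotent cells, had 24.5 and 27.1 FPKM in shBcat and 54.1 to 60.7 FPKM in shGFP (log2 change -1.12 ± 0.07, SE; limma adjusted p = 0.000179). Lin28a, an RNA-binding protein that blocks let-7 maturation and rises as cells leave the naive state, had 38.4 and 37.3 FPKM in shBcat and 13.8 to 17.3 FPKM in shGFP (log2 change 1.22 ± 0.09, SE; limma adjusted p = 0.000387).

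**Figure D3:**
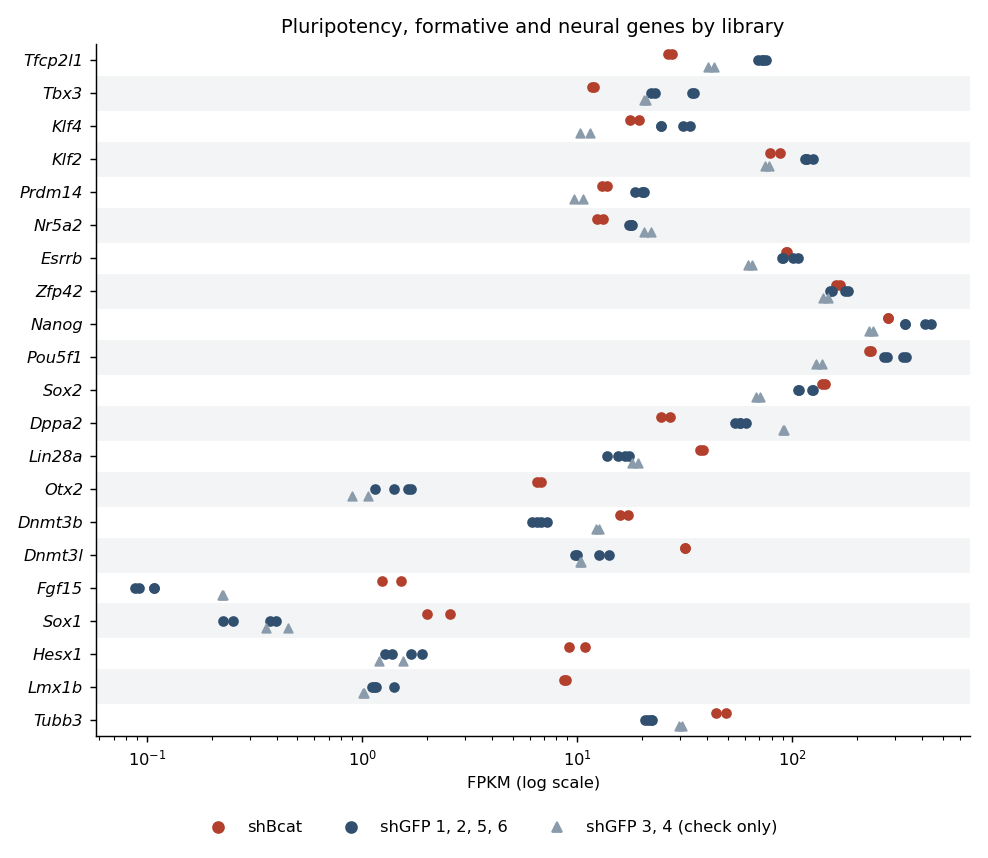
FPKM on a log scale of 21 pluripotency, formative and neural genes in each library, with shBcat red, shGFP 1, 2, 5 and 6 blue and shGFP 3 and 4 as grey triangles. Esrrb and Zfp42 overlap between shBcat and shGFP, Tfcp2l1 and Dppa2 lie lower in shBcat, and Otx2, Hesx1, Lmx1b and Sox1 lie higher.

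Genes of the formative epiblast and of anterior neural tissue were higher after the knockdown. Otx2, a homeobox factor of the formative epiblast and later of forebrain and midbrain (chromosome 14, 48656781 to 48667644), had 6.46 and 6.75 FPKM in shBcat, against 1.15, 1.40, 1.64 and 1.69 FPKM in shGFP (log2 change 1.63 ± 0.10, SE; limma adjusted p = 0.000234). Hesx1, a repressor of the anterior neural plate, had 10.8 and 9.13 FPKM in shBcat, against 1.68, 1.27, 1.89 and 1.37 FPKM in shGFP (log2 change 2.11 ± 0.12, SE; limma adjusted p = 0.000166). Lmx1b (chromosome 2, 33560965 to 33641208), a LIM homeobox factor of midbrain neurons and dorsal limb, had 8.67 and 8.83 FPKM in shBcat and 1.13, 1.16, 1.40 and 1.11 FPKM in shGFP (log2 change 2.15 ± 0.07, SE; limma adjusted p = 2.24e-05). For all 3 the shGFP 3 and 4 values, from 0.899 to 1.54 FPKM, fell in or below the range of the other controls, and the calls held with the pairs averaged.

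Of 11 tested anterior neural genes 7 rose and none fell, with a median log2 change of 0.76, and 5 rises were kept with the pairs averaged. Sox1, a marker of early neuroectoderm, had 2.01 and 2.55 FPKM in shBcat and 0.226 to 0.397 FPKM in shGFP, and Tubb3, a neuronal tubulin, had 44.0 and 48.9 FPKM in shBcat and 20.6 to 22.3 FPKM in shGFP. Pax6, a factor of neural progenitors, had 1.33 and 1.40 FPKM in shBcat and 0.286 to 0.535 FPKM in shGFP but 1.77 and 1.68 FPKM in shGFP 3 and 4, and its call was lost with the pairs averaged (limma adjusted p = 0.144). Of 20 tested genes of the formative and primed epiblast 9 rose and 4 fell (median 0.31), and 5 rises and 1 fall were kept with the pairs averaged. Dnmt3b, a de novo DNA methyltransferase, had 15.8 and 17.2 FPKM in shBcat and 6.17 to 7.24 FPKM in shGFP, but 12.2 and 12.6 FPKM in shGFP 3 and 4. Its call held with the pairs averaged but was lost with all 6 shGFP libraries (limma adjusted p = 0.092). Dnmt3l, the catalytically inactive partner of Dnmt3b, had 31.5 FPKM in both shBcat libraries and 9.72 to 14 FPKM in shGFP. Fgf15, an FGF expressed in the early nervous system, had 1.52 and 1.23 FPKM in shBcat and 0.0883 to 0.108 FPKM in shGFP. Fgf5 and Pou3f1, common markers of the formative state, stayed under the filter, at 0.604 and 0.595 FPKM for Fgf5 in shBcat and 0.101 to 0.156 FPKM in shGFP, and at 0.785 and 0.824 FPKM for Pou3f1 in shBcat and 0.240 to 0.355 FPKM in shGFP. Hmga2, a chromatin protein of the same list and also under the filter, had 0.624 and 0.648 FPKM in shBcat and 0.486 to 0.824 FPKM in shGFP, so its groups overlapped. The falls of this list included Etv4, described above, and Etv5, a related ETS factor with a log2 change of -0.58 whose call was lost with the pairs averaged.

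Markers of extraembryonic tissue changed in single genes. Of 8 tested primitive endoderm genes 4 rose and none fell, and with the pairs averaged, as without either shBcat library, only 1 was called. With the pairs averaged it was Lrp2, an endocytic receptor, with 7.31 and 7.19 FPKM in shBcat and 1.50 to 2.61 FPKM in shGFP. Gata6, Sox17 and Sox7, which define that lineage, were not among the genes tested. Of 10 tested trophoblast genes 4 rose and 2 fell, with a median of 0.02. Fgfr2, an FGF receptor, had 9.42 and 9.04 FPKM in shBcat and 2.17 to 2.85 FPKM in shGFP, and the simple-epithelium keratin Krt8 had 9.51 and 10.8 FPKM in shBcat and 3.31 to 4.55 FPKM in shGFP. Of the 2 falls, 1 reached 2-fold. The other was Gata2, with 1.03 and 0.923 FPKM in shBcat and 1.86 to 3.09 FPKM in shGFP (log2 change -0.78). The Gata2 call was lost with the pairs averaged and without either shBcat library. Cdx2 and Elf5, which define trophoblast, were not among the genes tested.

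Junction genes, the other setting in which β-catenin acts, showed no change that held with the pairs averaged. Of 23 tested cadherin, catenin and junction genes 6 rose and 5 fell, with a median of 0.07. Cdh1 (E-cadherin), which binds β-catenin at the membrane, had 92.0 and 91.5 FPKM in shBcat and 127 to 147 FPKM in shGFP (log2 change -0.56 ± 0.08, SE; limma adjusted p = 0.00435, and 0.298 with the pairs averaged). Cdh3 (P-cadherin) had 14 and 13.7 FPKM in shBcat and 3.97, 4.32, 7.01 and 6.75 FPKM in shGFP (log2 change 1.22 ± 0.22, SE; limma adjusted p = 0.00908, and 0.0704 with the pairs averaged). Neither call held without either shBcat library.

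**Figure D4:**
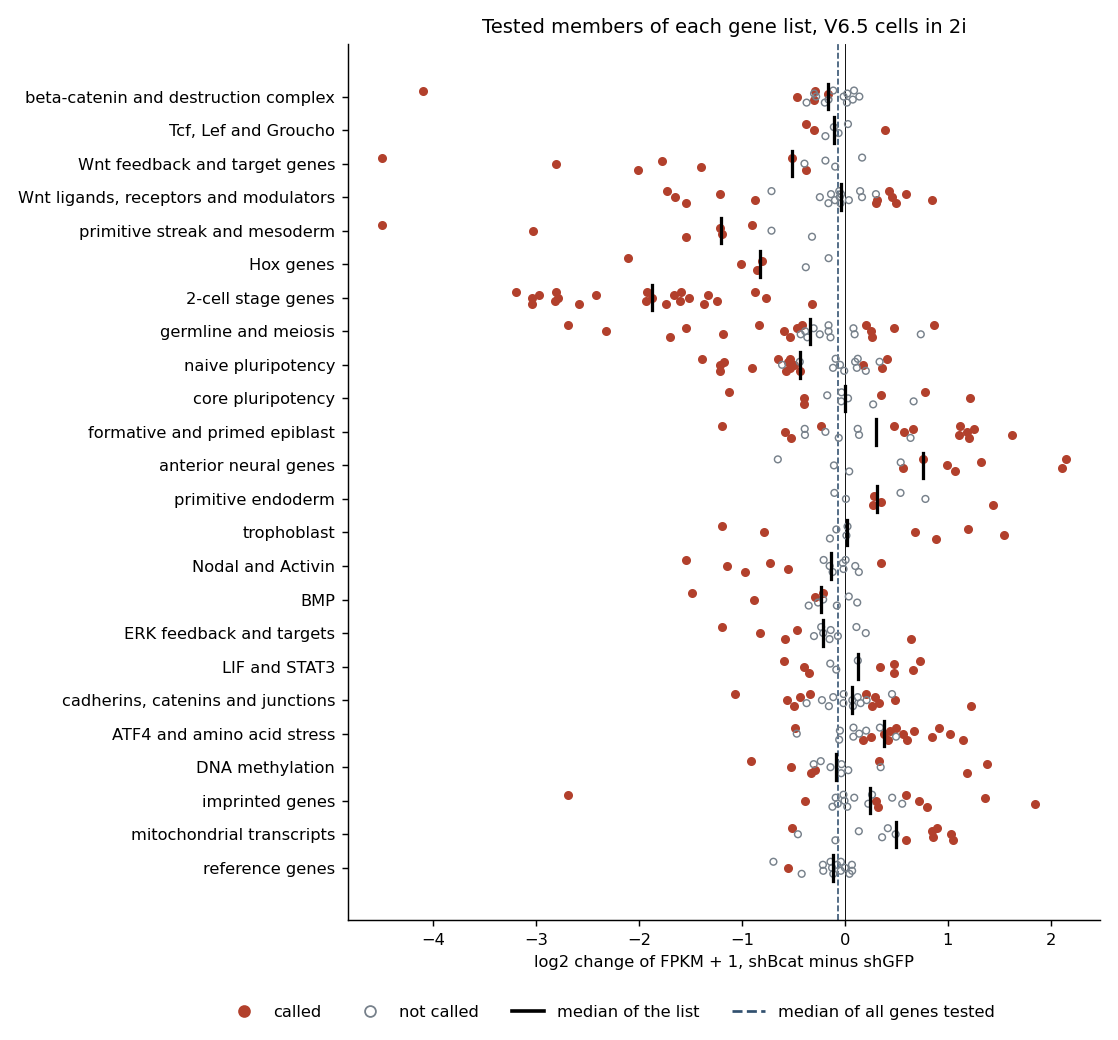
Log2 change (shBcat minus shGFP, FPKM + 1) of each tested member of 24 gene lists, called genes filled in red, others open, with each list's median as a black bar and the median of all genes tested, -0.06, as a dashed line. The 2-cell stage list lies wholly below 0, and the anterior neural list has the highest median, 0.76.

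Several of the largest rises were of genes in none of the developmental lists above. Car4, a membrane carbonic anhydrase, had 4.84 and 5.02 FPKM in shBcat and 0.128 to 0.536 FPKM in shGFP (log2 change 2.21 ± 0.14, SE; limma adjusted p = 0.000248). Myrf, a regulator of myelin genes, had 5.74 and 5.96 FPKM in shBcat and 0.395 to 0.857 FPKM in shGFP, and Crmp1, a protein of axon guidance, had 8.82 and 9.03 FPKM in shBcat and 0.825 to 1.86 FPKM in shGFP. Podxl, a sialomucin of the apical surface, had 13.1 and 12.3 FPKM in shBcat and 2.07 to 2.74 FPKM in shGFP (log2 change 2.02 ± 0.09, SE; limma adjusted p = 6.68e-05). These 4 kept their calls with the pairs averaged. Gap43, a protein of growing axons, was also among the largest rises but had 11.3 and 12.0 FPKM in shBcat, against an uneven 5.06, 4.66, 1.21 and 1.45 FPKM in shGFP, and its call was lost with the pairs averaged (limma adjusted p = 0.517). Gpc3, a heparan sulphate proteoglycan, had 13.5 and 13.8 FPKM in shBcat and 3.46 to 3.79 FPKM in shGFP (log2 change 1.67 ± 0.05, SE; limma adjusted p = 2e-05). Tagln, an actin-binding protein of smooth muscle, had 4.65 and 4.82 FPKM in shBcat and 0.417 to 0.846 FPKM in shGFP, while Pdgfrb, of the same fibroblast list, fell (log2 change -1.15).

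The 12 largest rises included Cyp26a1 and Crabp2, which belong to no list above. Cyp26a1, which degrades retinoic acid, had 2.88 and 3.09 FPKM in shBcat and 0.162 to 0.373 FPKM in shGFP (log2 change 1.66 ± 0.09, SE; limma adjusted p = 0.000111). Crabp2, which delivers retinoic acid to its nuclear receptors, had 6.96 and 8.80 FPKM in shBcat and 2.48, 2.57, 1.25 and 1.21 FPKM in shGFP (log2 change 1.66 ± 0.24, SE; limma adjusted p = 0.00464), and was not called without shBcat library 2.

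Imprinted growth regulators moved in opposite directions. H19, a non-coding RNA expressed from the maternal allele, had 11.4 and 10.0 FPKM in shBcat, against 2.59, 2.07, 2.80 and 1.63 FPKM in shGFP (log2 change 1.85 ± 0.16, SE; limma adjusted p = 0.000618). Its paternally expressed neighbour Igf2, a growth factor, had 6.86 and 7.04 FPKM in shBcat and 1.26 to 2.86 FPKM in shGFP, and was not called without either shBcat library. Plagl1 (chromosome 10, 13090832 to 13131694), a zinc-finger factor known to act on H19 and Igf2, had 2.72 and 2.46 FPKM in shBcat, against 28.1, 25.8, 18.2 and 17.9 FPKM in shGFP (log2 change -2.68 ± 0.20, SE; limma adjusted p = 0.000371). Of 20 tested imprinted genes 7 rose and 2 fell (median 0.25), and 3 rises, H19, Igf2 and Peg3, and 1 fall, Plagl1, were kept with the pairs averaged. Without shBcat library 1 or 2, 3 and 2 rises were called.

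Part of the response to amino acid and endoplasmic reticulum stress rose. Of 23 tested genes of the ATF4 list 13 rose and 1 fell, with a median log2 change of 0.38, and 4 rises were kept with the pairs averaged and 5 without either shBcat library. The 1 fall was Asns (asparagine synthetase), with 153 and 144 FPKM in shBcat and 200 to 212 FPKM in shGFP. Its log2 change was -0.48 (limma adjusted p = 0.00261), and -0.53 and -0.44 without shBcat library 1 and 2. The Asns call was kept with all 6 shGFP libraries but lost with the pairs averaged. Ddit3 (CHOP), a stress-induced transcription factor, had 8.69 and 8.87 FPKM in shBcat and 3.67 to 4.08 FPKM in shGFP (log2 change 1.02 ± 0.06, SE; limma adjusted p = 0.000137). Chac1, a glutathione-degrading enzyme, had 7.68 and 6.99 FPKM in shBcat and 2.60 to 2.99 FPKM in shGFP. Nupr1, a small stress protein, had 15.0 and 15.1 FPKM in shBcat and 6.69 to 8.83 FPKM in shGFP. Trib3, a pseudokinase induced by CHOP and ATF4, had 13.3 and 14.6 FPKM in shBcat and 6.17 to 8.76 FPKM in shGFP, and was not called without shBcat library 2. Phf19, a Polycomb PRC2 cofactor and the 1 rise among 11 tested PRC2 genes, had 7.34 and 7.27 FPKM in shBcat and 1.63 to 3.02 FPKM in shGFP, and was not called without either shBcat library. Other lists showed few changes that held. With the pairs averaged no call was kept among 11 genes of LIF signalling (5 rose, 3 fell), 22 of glycolysis (1 rose), 19 p53 targets (5 rose, 5 fell), 9 interferon genes (1 rose, 2 fell), 29 of replication (1 rose, 6 fell) and 19 of the PRC1.6 complex and HP1 (3 rose, 1 fell). Of 24 cholesterol synthesis genes 6 rose and 3 fell, and 2 falls were kept. Of 15 reference genes 1 fell and none rose, and Gapdh had 290 and 294 FPKM in shBcat and 297 to 387 FPKM in shGFP (log2 change -0.21; limma adjusted p = 0.285).

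The V6.5 changes were set beside the same knockdown in 2 other settings, each with its own controls and in TPM tables (transcript shares scaled to a common total) normalized separately, so nothing was tested across settings. The first is a line labelled QKO, a name the labels do not spell out, in 2i, with shBcat and shGFP (n = 3 each, titled 48 h). The second is epiblast-like cells (epiLC), titled as the same V6.5 line. These are ES cells taken towards the epiblast of the implanting embryo. They were at 96 h, with shBcat and with controls for which no hairpin is named (n = 2 each). Where a setting is named V6.5 below, V6.5 cells in 2i are meant. Ctnnb1 fell in both. It had 48.4, 62.4 and 82.4 TPM in QKO shBcat, against 528, 490 and 497 TPM in QKO shGFP (log2 change -2.98 ± 0.18, SE; limma adjusted p = 0.0108), and 145 and 142 TPM in epiLC shBcat, against 448 and 441 TPM in the epiLC controls (log2 change -1.62 ± 0.06, SE; limma adjusted p = 0.00129).

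In QKO 334 of 15562 genes (2.15%) were called, 243 lower (1.56%) and 91 higher (0.585%). Of the 363 genes that fell 2-fold or more in V6.5, 302 were tested in QKO, where 10 fell and 7 rose, with 140 changes below and 162 above 0. Of the 96 that rose 2-fold or more, 88 were tested, and 3 rose and 2 fell. Axin2 had 5.12, 5.97 and 5.83 TPM in QKO shBcat, against 5.89, 6.03 and 5.53 TPM in QKO shGFP (log2 change -0.04 ± 0.09, SE; limma adjusted p = 0.801). Cdx1 had 1.08 to 1.48 TPM in QKO shBcat and 1.4 to 1.6 TPM in QKO shGFP, and Zscan4f had 122 to 135 TPM in QKO shBcat and 98.9 to 121 TPM in QKO shGFP. Neither was called, and none of 28 tested genes of the 2-cell list was. In QKO, 7 of 19 fibroblast and matrix genes (median log2 change -1.88) and 12 of 17 interferon genes (median -1.30) fell with the knockdown, and their part in the QKO calls was not tested. The QKO count is unstable, with 8 to 932 genes called when 1 library was left out, 8 of them without shGFP library 1 and 932 without shGFP library 3.

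In epiLC at 96 h 268 of 14577 genes (1.84%) were called, 117 higher (0.803%) and 151 lower (1.04%), and the libraries of both groups did not overlap for 45.2% of genes. Of the 363 falls of V6.5, 273 were tested, and 11 fell and 7 rose. Of the 96 rises, 89 were tested, and 12 rose and 3 fell, with 66 changes above 0 and a median of 0.15. Among the 12 were H19, at 326 and 378 TPM in epiLC shBcat and 199 and 213 TPM in the controls, and Ddit3, at 16.9 and 15.6 TPM in epiLC shBcat and 7.51 and 7.22 TPM in the controls. Dnmt3l, Chac1, Trib3 and Nupr1 were also called higher in epiLC, with log2 changes of 0.73, 1.11, 1.12 and 1.19. In QKO the stress genes Ddit3 and Nupr1 lay the other way without passing the threshold. Ddit3 had 9.47 to 12.1 TPM in QKO shBcat and 18.9 to 32.7 TPM in QKO shGFP (log2 change -1.01; limma adjusted p = 0.0574), and Nupr1 had 32.4 to 34.1 TPM in QKO shBcat and 61.5 to 118 TPM in QKO shGFP (log2 change -1.27; limma adjusted p = 0.0514). Axin2 had 6.56 and 8.09 TPM in epiLC shBcat and 8.39 and 8.78 TPM in the controls (log2 change -0.21; limma adjusted p = 0.497), and none of 30 tested 2-cell genes was called. Of 15 tested streak and mesoderm genes 5 fell and none rose there. Nkx1-2, Lefty2 and Wnt8a fell in epiLC as in V6.5 (log2 changes -0.80, -0.50 and -0.65), and so did Cdh1 (-0.50). Lef1, not called in V6.5, fell in epiLC to 12.4 and 16.6 TPM in shBcat, against 25.6 and 28.5 TPM in the controls (log2 change -0.86; limma adjusted p = 0.0438).

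**Figure D5:**
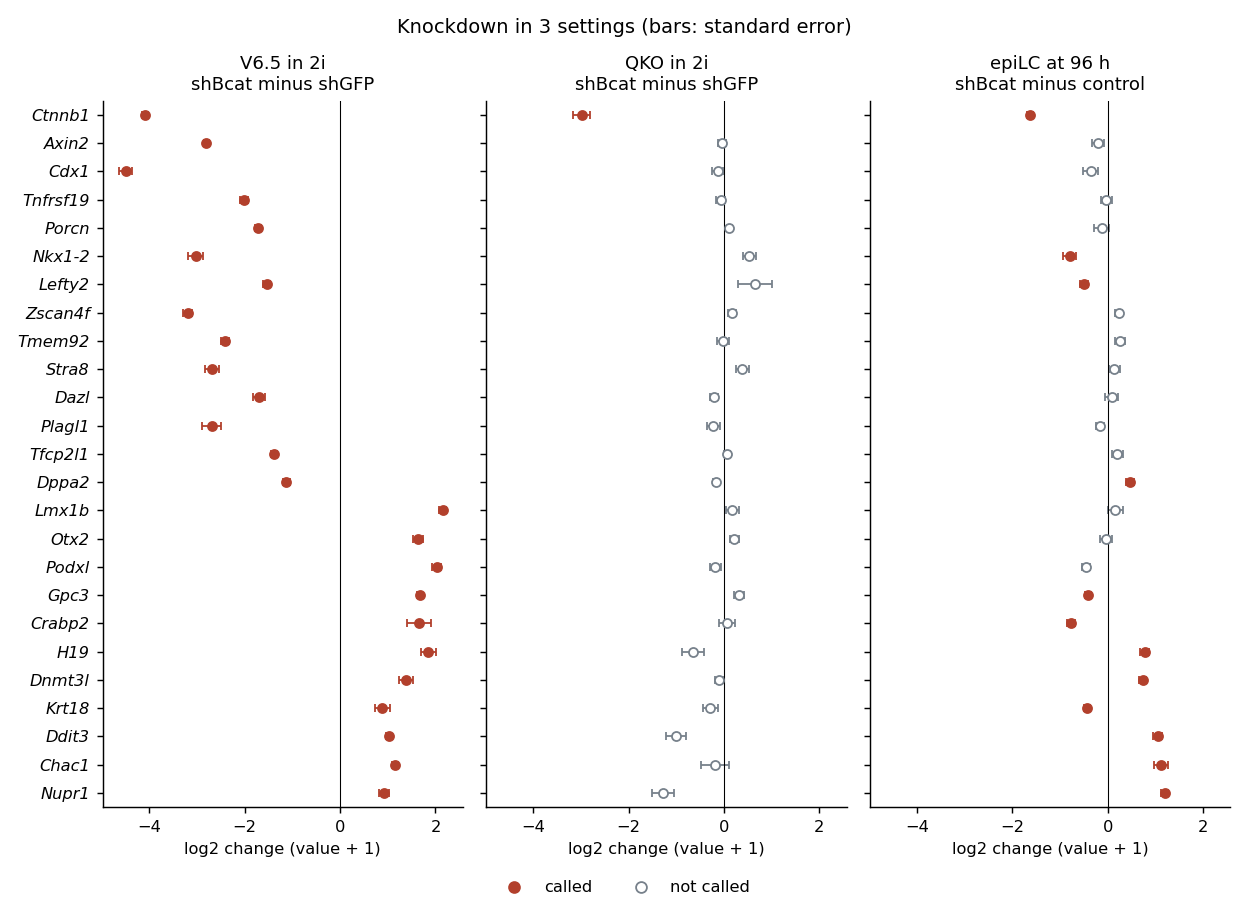
Log2 change with its standard error of 25 genes after the knockdown in V6.5 cells in 2i (shBcat minus shGFP), QKO cells in 2i (shBcat minus shGFP) and epiLC at 96 h (shBcat minus control), each on its own table's scale of value + 1, with called genes filled. Ctnnb1 is called in all 3, at -4.09, -2.98 and -1.62, while Axin2, Cdx1 and Zscan4f are called only in V6.5 cells in 2i.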

How the data were processed

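RNA-seq libraries of V6.5 cells were compared as 2 shBcat against 4 shGFP libraries. The authors deposited FPKM values for them, processed with TopHat2 2.0.13 and Cufflinks 2.2.1 on the mm10 build, per the submitters' processing notes, which also name bcl2fastq 2.18. The QKO and epiLC values are TPM that the authors deposited in separate tables, made with STAR and RSEM per the same notes. Neither unit keeps read counts, so sequencing depth and counting error are unknown, and between 13160 and 13591 genes reached 1 FPKM per library. Levels of a few abundant transcripts shift all other FPKM values, so another scaling was tried. The FPKM table has no value at 0, so genes at 0 in any library may be missing from it. It held 1 further column of per-sample values that was not used.

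From these values log2(value + 1) was computed, which understates changes of low genes. Genes with at least 1 FPKM or TPM in at least 2 libraries were fitted with limma 3.58.1 (statmod 1.5.0, R 4.3.3), with a variance trend and robust moderation. Tests were two-sided, adjusted by the Benjamini-Hochberg method over all genes tested, with a threshold of 0.05, and the fit was tested on simulated data. Lists are described by counts and medians only. The members, lists and rules were chosen with earlier results of these data known, so list counts are no independent support. Named genes were Ctnnb1 and Jup, the 12 largest rises and 12 largest falls with separated libraries and a higher group mean of at least 2 FPKM (leaving out provisional symbols such as Gm and Rik, pseudogenes, ribosomal protein and small RNA genes), up to 5 members per list with the smallest p, the 12 most abundant called genes and a fixed set of Wnt, pluripotency and lineage genes. Genes outside this rule are marked where they appear. Some genes that this rule names are not reported here. Promoters came from the RefSeq table (GRCm38.p6, aligned with Biopython) and were matched by symbol.

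Alternatives were a pseudocount of 0.1, no filter or 5 FPKM or TPM, median-of-ratios scaling, no trend and no robust moderation, other sets of shGFP libraries, a fit of all 12 hairpin libraries, a replicate block, libraries averaged in pairs, a minimum of 2-fold and each library left out in turn.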

Additional observations from a re-analysis of the deposited data

Results flagged for a closer look

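Of the genes that rose in V6.5 cells in 2i, 1299 were tested in epiLC at 96 h, where 31 rose and 12 fell. Of those that fell in V6.5, 2209 were tested, of which 26 fell and 14 rose. Over all 14577 genes tested in epiLC, 0.803% were called higher and 1.04% lower. Among the genes named here, 5 were called in opposite directions, with libraries that did not overlap in either setting. The difference between the settings was not tested, since the tables were normalized separately. Dppa2, lower in V6.5 shBcat, had 80.0 and 87.3 TPM in epiLC shBcat and 58.6 and 62.5 TPM in the controls (log2 change 0.46; limma adjusted p = 0.0485). Crabp2, higher in V6.5 shBcat, had 58.8 and 52.2 TPM in epiLC shBcat and 99.5 and 91.0 TPM in the controls (log2 change -0.77; limma adjusted p = 0.015). Fgf15, at 15.7 and 17.6 TPM in epiLC shBcat and 25.6 and 25.7 TPM in the controls, had a log2 change of -0.59 there, against 1.11 in V6.5. Gpc3, at 41.1 and 40.0 TPM in epiLC shBcat and 53.8 and 55.1 TPM in the controls, had a log2 change of -0.42 there, against 1.67 in V6.5. Krt18, another keratin of simple epithelia, had 8.41 and 9.09 FPKM in V6.5 shBcat and 3.10 to 4.92 FPKM in shGFP, but 47.1 and 47.4 TPM in epiLC shBcat and 64.0 and 64.7 TPM in the controls (log2 change -0.44). The Krt18 call in V6.5 was lost without either shBcat library.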

How the results depend on the processing

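Ctnnb1 fell under every alternative tried. Of 89 called genes named in V6.5, all kept direction and call with a pseudocount of 0.1, no filter and no trend. So did the 72 of them tested at 5 FPKM. Asns and Gata2 are not among these 89 genes. In V6.5 the 3915 calls became 2526 at 5 FPKM, 1147 with all 6 shGFP libraries, 6740 with shGFP 1 and 2 only, 8909 with 5 and 6 only, 10560 with 3 and 4 only, 1204 in a fit of all 12 hairpin libraries, 570 with libraries averaged in pairs (where a lone shBcat value is assumed to vary like the controls), 459 with a minimum of 2-fold, and 1240 to 3830 with 1 library left out. The 459 genes past 2-fold became 823 with a pseudocount of 0.1, 275 at 5 FPKM and 1424 against shGFP 3 and 4 only; 405 of the 459 were called in the same direction against that pair. In QKO the 334 calls became 570 with a pseudocount of 0.1, 14 without a filter, 855 at 5 TPM and 8 to 932 with 1 library left out. In epiLC the 268 calls became 10 without a filter and 119 to 360 with 1 library left out. Why these counts moved was not tested.

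No steady pairing by replicate number was seen in V6.5 or QKO, while in epiLC same-numbered libraries deviated together. Deviations of same-numbered libraries correlated at 0.0911 and -0.0540 in V6.5. In QKO they correlated at -0.0119, -0.0417 and 0.131, and not every library correlated best with its own number. In epiLC they correlated at 0.325 for both of the 2 pairs, against -0.325 for libraries of different number. With 2 libraries in a group the deviations mirror each other, so the V6.5 and epiLC values cannot settle whether libraries were paired. With a replicate block 6761 genes were called in V6.5 (libraries 1 and 2 of each hairpin), 138 in QKO and 1568 in epiLC.

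Against shGFP 3 and 4 only, log2 changes turned round for 8 called genes, Rec8 (0.40), Tex19.1 (0.0694), Prdm14 (0.37), Klf2 (0.13), Klf4 (0.72), Pou5f1 (0.78), Nodal (0.22) and Pax6 (-0.20), and for Nanog (0.26), Tcf7l2 (-0.0181), Esrrb (0.55) and Zfp42 (0.19). The other turns were in genes not called. With shGFP 1 and 2 only, and with the block, they were Lef1 (0.0006), Tcf7l1 (0.0056) and Tcf7l2 (-0.0965). With median-of-ratios scaling they were Tcf7l1 (0.0079), Esrrb (0.0245), Zfp42 (0.065) and Axin2 in QKO (0.0041). Esrrb gave 0.15 and Zfp42 0.0602 with all 6 shGFP libraries or all 12 libraries, and 0.0537 and 0.11 with shGFP 5 and 6 only. With 1 library left out, Tcf7l2 ranged from -0.0147 to 0.0923, Zfp42 from -0.0509 to 0.0421, Axin2 in QKO from -0.0757 to 0.0182 and Crabp2 in QKO from -0.12 to 0.2346. Klf4 and Pou5f1 were not called with median-of-ratios scaling. With all 6 shGFP libraries 16 of the 89 calls were lost, among them Igf2, Dnmt3b, Trib3 and Pdgfrb. Without sequencing depth, no limit can be given for genes near 0.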

Other observations

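Gli1, Hhip and Ptch1 were picked after their values were seen, are in no list above and say nothing of other genes of the Hedgehog pathway. Gli1, a transcription factor that is itself a target of that pathway, had 5.65 and 5.40 FPKM in shBcat, against 1.53, 1.63, 0.953 and 0.854 FPKM in shGFP (log2 change 1.56 ± 0.16, SE; limma adjusted p = 0.00139). Hhip, a target that sequesters Hedgehog ligands, had 5.08 and 5.03 FPKM in shBcat and 1.23, 1.31, 0.896 and 0.848 FPKM in shGFP (log2 change 1.55 ± 0.11, SE; limma adjusted p = 0.000337). The Gli1 and Hhip calls held with the pairs averaged. Ptch1, the receptor and a further target, had 13.7 and 13.6 FPKM in shBcat and 8.04 to 9.89 FPKM in shGFP, and its call was lost with the pairs averaged (limma adjusted p = 0.15) and without either shBcat library. Hhip was also called higher in epiLC at 96 h (log2 change 0.81).

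Myc, below the level for a test, had 0.225 and 0.212 FPKM in shBcat and 0.804 to 1.14 FPKM in shGFP.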
